A study of Mus musculus with 36 samples.

Results

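The circRNA libraries of APP/PS1 mouse brain were compared between 9 and 6 months of age, with 3 libraries at each age. These 6 libraries were chosen by the assay, genotype and age in their labels, out of 12 circRNA libraries and 36 samples in the series, and all 15690 circRNAs of the deposited table were considered. APP/PS1 mice carry transgenes for a mutant human amyloid precursor protein (APP695swe) and a mutant presenilin (PS1-dE9) and form amyloid plaques with age. Both mutations were present at both ages, the labelled strain was C57BL/6 throughout, and the promoter that drives the transgenes is not given in the sources used here. Wild-type C57BL/6 libraries of 6 and 9 months, 3 of each, are given beside the APP/PS1 values where the genotypes were compared. Whether the 3 libraries of a group stem from different mice is not stated in the labels, so a p-value here speaks only of the spread among libraries, which may be technical.

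A circRNA is a closed RNA ring that forms when the splicing machinery joins the end of an exon back to the start of the same or an earlier exon. It has no free ends for exonucleases to attack and is usually more stable than the linear transcript of its gene. Brain is known for many and abundant circRNAs, and circRNA levels are known to build up with age in neural tissue of several animals. The table names each circRNA only by a number. Of the 15690, 1197 had an mmu_circ number, the form used by the circBase catalogue, and 14493 had a novel_circ number given by the authors. Position, host gene and sequence are not paired with these numbers in the files used here, so each circRNA is given by its ID and level.

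The 6 libraries held similar numbers of circRNA reads. At 6 months the totals were 361863, 452621 and 393538 reads, and at 9 months they were 373626, 422383 and 404079. The ages overlapped, with means of 402674 ± 46064 at 6 months and 400029 ± 24629 at 9 months (SD, n = 3 each, exact permutation p = 1, adjusted over 4 such whole-library measures 1). The totals did not differ beyond the spread between libraries, and they also depend on how deeply each library was sequenced. Libraries of the same age had Spearman correlations of 0.785 to 0.807 over 6 pairs, and pairs of different age 0.769 to 0.788 over 9 pairs. No pair of libraries agreed within counting noise. The same-age pairs differed by 1.96 to 3.06 times what counting error gives (chi-square per degree of freedom), and pairs of different age by 2.78 to 3.91 times. The ratio pools all circRNAs, so a few abundant ones can weigh on it. Same-age pairs with novel_circ_0044209 high in both libraries were at 1.96 and 2.03, and those with it near 0 in 1 library at 2.87 to 3.06. Every pair of different age also had mmu_circ_0000723 at 0 in 1 library.

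Slightly fewer different circRNAs were found at 9 months. Reduced to an equal depth of 361863 reads, the expected number of circRNAs with at least 2 reads was 13646, 13745 and 13766 at 6 months. At 9 months it was 13480, 13612 and 13588. Every 9-month library was below every 6-month library, with means of 13719 ± 63.9 and 13559.9 ± 70.0, a difference of -159 circRNAs (SD, n = 3 each, exact permutation p = 0.1, adjusted 0.4). With 3 libraries against 3 no two-sided exact test can give a p below 0.1. With at least 5 reads required the difference was -79.6, again without overlap, and at the deposited depth it was -166 with overlapping ages (exact permutation p = 0.5).

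Most reads came from circRNAs present throughout. Of the 15690, 9858 (62.8%) were detected in all 6 libraries and held 92.8% to 94.3% of the reads, while 57 were in none of them. Those found at one age only numbered 324 at 6 months and 287 at 9 months. Catalogued circRNAs held 44.1% ± 0.309 of the reads at 6 months and 44.3% ± 0.232 at 9 months (SD, n = 3, exact permutation p = 0.5, adjusted 0.667). The 10 most abundant held 7.55%, 7.44% and 6.07% at 6 months and 6.58%, 4.94% and 6.68% at 9 months, which overlapped (exact permutation p = 0.3, adjusted 0.6).

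Single circRNAs were tested with edgeR's quasi-likelihood test on the read counts, for the 14872 that reached at least 2 reads in at least 3 of the 12 libraries and 20 reads in all. The other 818 were not tested. At an adjusted p under 0.05, 2 circRNAs differed between the ages in APP/PS1, which is 0.0134% of those tested. One was higher at 9 months (0.00672%) and one was lower (0.00672%). At an unadjusted p under 0.05 there were 658 (4.42%), of which 305 were higher (2.05%) and 353 lower (2.37%). Apart from the 2 called, none of the 658 passed the adjustment, and they are not read as changed. DESeq2 called 8 circRNAs and limma-voom called 4, and both circRNAs of the edgeR test were among each. Fitted on the 6 APP/PS1 libraries alone, with their own spread, edgeR called 12, of which 6 were higher and 6 lower, again with both among them. Leaving out wild-type library 1 of 9 months, the deepest of all and no part of this contrast, gave 10 calls, leaving out wild-type library 3 of 9 months gave 6 and leaving out wild-type library 2 of 9 months gave 4. Leaving out APP/PS1 library 2 or library 3 of 6 months gave 1.

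The circRNA that rose was novel_circ_0015795. Its level in counts per 1000000 circRNA reads (CPM) was 24.9, 22.1 and 22.9 in the 6-month APP/PS1 libraries. At 9 months it was 109.7, 173 and 178. Every 9-month library was thus well above every 6-month library, and the mean went from 23.3 ± 1.43 to 154 ± 38.1 CPM (SD, n = 3). The log2 difference was 2.71 with an SE of 0.32 and a 95% interval of 2.04 to 3.38, a 6.54-fold higher level (edgeR adjusted p = 0.000621). The call held in all 20 alternative analyses, with adjusted p from 2.85e-07 to 0.0177. In wild-type brain the order of the ages was the opposite. The wild-type libraries held 86.9, 74.6 and 79.3 CPM at 6 months and 29.0, 16.1 and 27.6 CPM at 9 months. That wild-type difference did not pass the threshold (log2 -1.61, SE 0.33, edgeR adjusted p = 0.0631), but the difference between the age effects of the genotypes did, at 4.32 on the log2 scale (SE 0.46, edgeR adjusted p = 0.000121).

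The circRNA that fell was novel_circ_0015649. It was at 52.5, 55.2 and 35.6 CPM in the 6-month APP/PS1 libraries and was listed at 0 in all 3 libraries of 9 months (edgeR adjusted p = 0.0356). The deposited table holds no count of 1, so a 0 may stand for a value below a minimum, and no fold is given against such zeros. Wild-type brain again had the opposite order, with 0 in all 3 libraries at 6 months and 24.5, 8.06 and 30.4 CPM at 9 months. This call rested on few reads. It was lost when any 1 of the 6 APP/PS1 libraries was left out, with adjusted p from 0.0723 to 0.196, and under edgeR's filterByExpr rule for low counts, at 0.191.

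**Figure D1:**
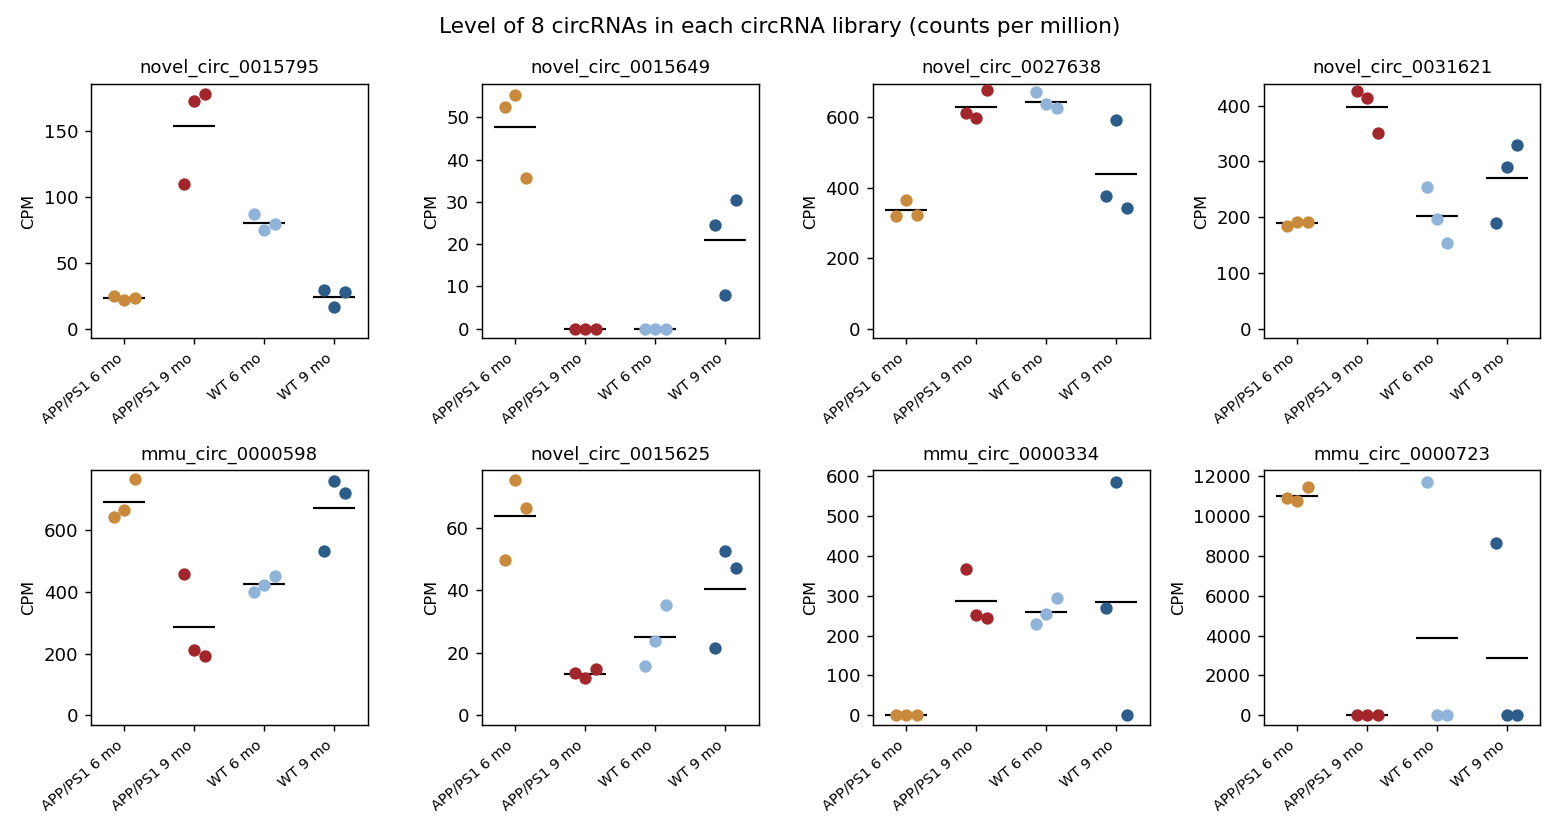
Level of 8 circRNAs in CPM (vertical axes, from 0) in each of the 12 circRNA libraries, by genotype and age. Points are libraries and bars are means of 3. novel_circ_0015795 is at 22.1 to 24.9 CPM in APP/PS1 at 6 months and 109.7 to 178 at 9 months, and mmu_circ_0000723 is at or above 10762 CPM in all 6-month APP/PS1 libraries and at 0 in all 9-month ones.

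The circRNAs next in order of p did not pass the threshold in the model of all 12 libraries, and several passed it in an alternative named beside them. Among those with a higher level at 9 months, novel_circ_0031621 had 185, 192 and 191 CPM at 6 months and 426, 414 and 351 CPM at 9 months. The ages did not overlap, and the log2 difference was 1.07 (SE 0.21, edgeR adjusted p = 0.118). It passed with DESeq2 (adjusted p = 0.0257), with the APP/PS1 libraries alone (0.00997) and without wild-type library 1 of 9 months (0.0346). For novel_circ_0027638 the values were 321, 365 and 323 CPM at 6 months and 613, 599 and 678 CPM at 9 months, with a log2 difference of 0.90 (SE 0.18, adjusted p = 0.111). It passed with DESeq2 (adjusted p = 0.0163), with the APP/PS1 libraries alone (0.00997) and without wild-type library 1 (0.0415) or library 2 (0.0423) of 9 months. Its wild-type libraries showed 671, 638 and 626 CPM at 6 months and 378, 593 and 343 CPM at 9 months, so the genotypes differed in direction here too. novel_circ_0038119 went from 24.9, 19.9 and 20.3 CPM to 61.6, 66.3 and 101 CPM, a log2 difference of 1.81 (SE 0.37, adjusted p = 0.117). novel_circ_0049653, with 22.1, 8.84 and 30.5 against 74.9, 161 and 56.9 CPM, had a log2 difference of 2.27 but a wider error (SE 0.52, adjusted p = 0.202). novel_circ_0010184 was at 279, 106 and 139.8 CPM and then at 476, 476 and 312 CPM, with a log2 difference of 1.28 (SE 0.28, adjusted p = 0.203, and 0.0268 without APP/PS1 library 1 of 6 months). These last values did not overlap between the ages either, although library 1 of 6 months came within a small distance of library 3 of 9 months.

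Of the 10 circRNAs named for smallest p among those lower at 9 months, mmu_circ_0000598 alone was catalogued and had reads in every library. It was at 644, 665 and 765 CPM at 6 months and at 458, 211 and 193 CPM at 9 months. The log2 difference was -1.27 (SE 0.24, edgeR adjusted p = 0.109). It passed with DESeq2 (adjusted p = 0.0068), with limma-voom (0.018), and without wild-type library 1 (0.0415) or APP/PS1 library 1 (0.000321) of 9 months. Its wild-type means were 424 CPM at 6 months and 670.1 CPM at 9 months. novel_circ_0015625 had 49.7, 75.1 and 66.1 CPM at 6 months against 13.4, 11.8 and 14.8 CPM at 9 months, a log2 difference of -2.24 (SE 0.45, adjusted p = 0.109). The adjusted p was 0.0434 with the APP/PS1 libraries alone and 0.0415 without wild-type library 1 of 9 months. novel_circ_0015621 had 60.8, 77.3 and 50.8 against 24.1, 21.3 and 4.95 CPM (log2 -1.90, SE 0.49, adjusted p = 0.448). In both of these the 9-month libraries lay well below the 6-month ones. novel_circ_0031705 had 141, 139 and 96.6 against 21.4, 45.0 and 44.5 CPM (log2 -1.75, SE 0.39, adjusted p = 0.202). novel_circ_0028104 had 141, 88.4 and 122 against 56.2, 61.6 and 42.1 CPM (log2 -1.12, SE 0.28, adjusted p = 0.448). novel_circ_0053905 ranged from 16.6 to 77.3 CPM at 6 months and from 5.35 to 11.8 CPM at 9 months (log2 -2.24, SE 0.62, adjusted p = 0.499), with the 6-month libraries far apart from each other.

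**Figure D2:**
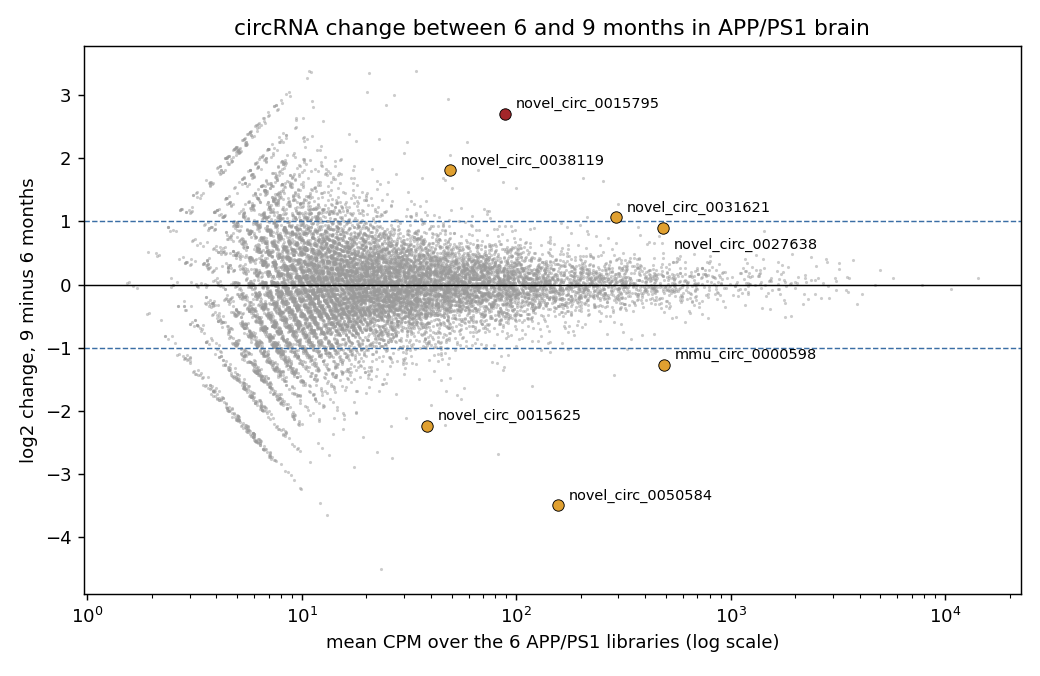
Each grey point is a tested circRNA with reads at both ages, at its mean CPM over the 6 APP/PS1 libraries (horizontal, log scale) and its fitted log2 change from 6 to 9 months (vertical). The dark red point is novel_circ_0015795 at 2.71, orange points are circRNAs named in the text that were not called and dashed lines mark 2-fold changes. The points fan out toward low levels.

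Over all tested circRNAs the changes were centred on 0 and their spread narrowed with abundance. The median log2 difference was -0.007, and the middle 90% ran from -1.36 to 1.2. In 2048 circRNAs (13.8%) the 3 libraries of one age did not overlap the 3 of the other, 986 with higher (6.63%) and 1062 with lower (7.14%) values at 9 months. In the lowest of 4 abundance classes (mean up to 9.67 CPM) the median SE was 1.34 on the log2 scale, and for no circRNA there did the 95% interval lie within a 2-fold change in either direction. In the highest class (44.9 CPM and above) the median SE was 0.29, and the interval lay within 2-fold for 2666 of 3718 circRNAs (71.7%). Over all classes this held for 3115 (20.9%). For the rest of the 14605 with reads at both ages, a change of more than 2-fold in at least one direction lay within the interval at this depth. CircRNAs at 0 in all libraries of an age were given no interval and were not counted as within 2-fold.

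Catalogued circRNAs were the more abundant ones, with a median of 135 CPM against 16.6 CPM for the authors' own IDs. Their median log2 difference was 0.025, close to the -0.012 of the others. Of 1196 tested, 69 (5.77%) had an unadjusted p under 0.05, 38 higher and 31 lower, and none was called. Among the 13676 other IDs tested it was 589 (4.31%), 267 higher and 322 lower, with 2 called. For 779 catalogued circRNAs (65.1%) the interval lay within 2-fold, against 2336 of the others (17.1%). Among the 100 most abundant circRNAs (at least 1170 CPM), 12 (12%) had an unadjusted p under 0.05 and 40 (40%) did not overlap between the ages, and the interval lay within 2-fold for 94. Those shares were above the 4.42% and 13.8% over all tested circRNAs, with a median SE of 0.14 against 0.62.

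Of the 10 most abundant circRNAs, 5 did not overlap between the ages and 5 did, and none was called. The share without overlap was 40% in the 100 most abundant and 13.8% over all tested circRNAs. mmu_circ_0000057 had the highest mean, with 12936, 14275 and 14042 CPM at 6 months and 14897, 13765 and 15601 CPM at 9 months (log2 0.10, SE 0.11). mmu_circ_0000349 was at 4977, 4492 and 4731 CPM and then at 4590.2, 4811 and 4791 CPM, and its fitted log2 difference was 0.00 (SE 0.11). mmu_circ_0001605 (means of 7830.3 and 7827 CPM) and mmu_circ_0001829 (5546 and 5958 CPM) overlapped between the ages, with log2 differences of 0.00 and 0.10. mmu_circ_0001589 was at 4272, 4428 and 4175 CPM at 6 months and at 3827, 3767 and 4059 CPM at 9 months, which did not overlap (log2 -0.15, SE 0.11, edgeR unadjusted p = 0.195). For mmu_circ_0001125 the 6-month libraries held 4844, 4562 and 4246 CPM and the 9-month libraries 5356, 5360.1 and 5370.2 CPM, which did not overlap (log2 0.24, SE 0.17, edgeR unadjusted p = 0.177). The next pair had the smallest p of those with reads in every library. mmu_circ_0000017 was at 4134, 4509 and 4259 CPM at 6 months and at 3549, 3693 and 3232 CPM at 9 months (log2 -0.30, SE 0.11, edgeR unadjusted p = 0.0152, adjusted p = 0.938). mmu_circ_0000489 was at 3358, 3223 and 3133 CPM and then at 4443, 3878 and 4346 CPM (log2 0.38, SE 0.13, unadjusted p = 0.0106, adjusted p = 0.909). Both had no overlap between the ages, and neither passed the threshold.

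**Figure D3:**
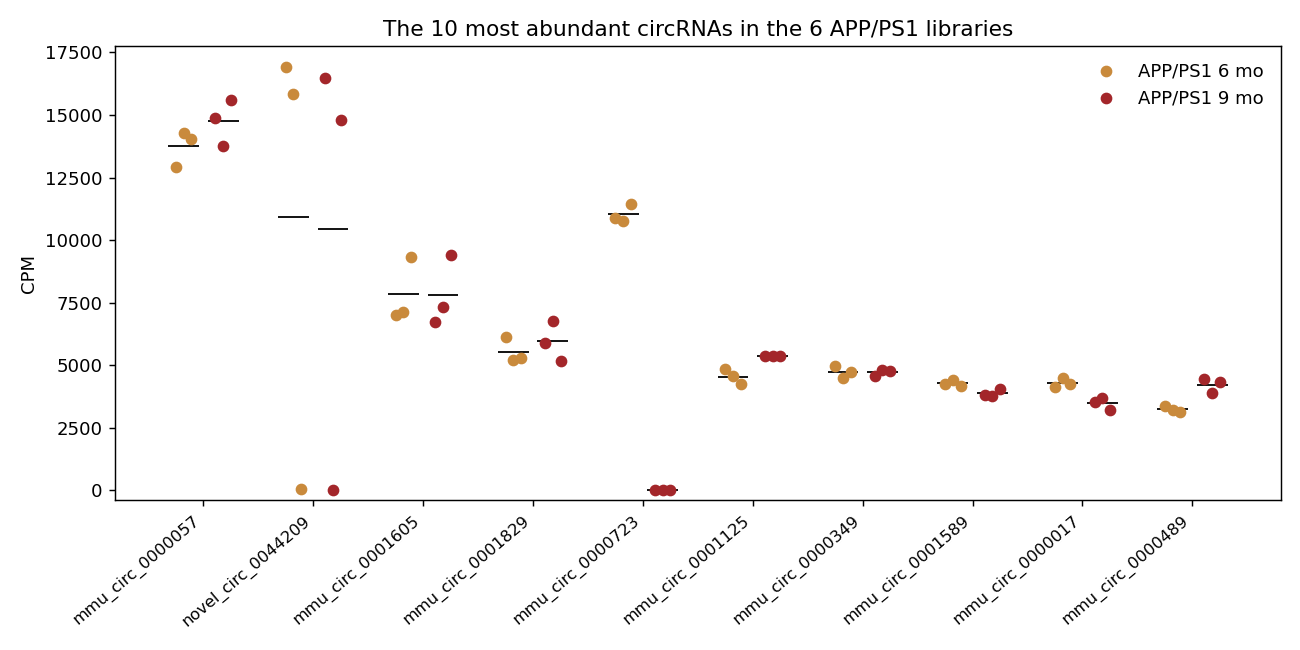
The 10 circRNAs of highest mean level in the 6 APP/PS1 libraries, with the level in CPM (vertical axis, from 0) in each library at 6 months (orange) and 9 months (red). Bars are means of 3. mmu_circ_0000057 lies between 12936 and 15601 CPM in all 6, while novel_circ_0044209 and mmu_circ_0000723 are near or at 0 in 2 and 3 libraries.

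A pair of the 10 behaved otherwise. mmu_circ_0000723 was at 10885, 10762 and 11437 CPM in the 6-month libraries and was listed at 0 in all 3 libraries of 9 months. It was not called in the model of all 12 libraries (edgeR unadjusted p = 0.00149, adjusted p = 0.58). Its result under the alternative analyses was not recorded. In wild-type brain it was at 11708, 0 and 0 CPM at 6 months and at 8648, 0 and 0 CPM at 9 months, so it was present at full level in some libraries of a group and listed at 0 in others. novel_circ_0044209 was at 16915, 15828 and 53.4 CPM at 6 months and at 16495, 30.8 and 14819 CPM at 9 months. It was low in 1 library of each age in APP/PS1 and also in wild-type library 1 of 6 months (55.3 CPM) and wild-type library 3 of 9 months (22.1 CPM). Without this pair, the share of reads in the other 8 was 4.82% at 6 months and 5.02% at 9 months, a difference of 0.199 percentage points in the opposite direction to the -0.952 of all 10 (exact permutation p = 0.1 and 0.3).

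This switching between a high level and near 0 was described over all circRNAs by a rule chosen after the values had been seen. Of 1156 circRNAs that reached 200 CPM in a library of the 6, 40 (3.46%) were under 5% of their highest level in at least 1 other library. In 2 of the 40 all 6-month libraries and no 9-month library were low (mmu_circ_0000334 and novel_circ_0040114). In 2 all 9-month libraries and no 6-month library were low (mmu_circ_0000723 and mmu_circ_0001509). The other 36 did not split by age in this way, with 13 low in some libraries of both ages and 23 low in 1 or 2 libraries of one age only. Only a circRNA low in exactly 3 of the 6 libraries can split in this way, so most of the 36 could not. Just 1 of the 6 libraries was low for 20 of the 40. By another count, 10 circRNAs averaging at least 20 reads where present were at 0 in exactly 3 of the 6 libraries. For 3 of these the zeros were all libraries of 6 months, and for 4 all of 9 months. At any level, 777 circRNAs were at 0 in exactly 3 of the 6 libraries. For 159 of the 777 the zeros were all libraries of 6 months, and for 177 all of 9 months. A link of switching with age was not tested. Of the 40, 27 were also low in at least 1 wild-type library. In APP/PS1, novel_circ_0043144 was high where novel_circ_0044209 was low, with 1059.6 CPM in library 3 of 6 months and 1091 CPM in library 2 of 9 months. In the other 4 APP/PS1 libraries novel_circ_0043144 was at 42.8 to 71.8 CPM. Of the wild-type libraries in which novel_circ_0044209 was low, library 3 of 9 months held 1443 CPM of novel_circ_0043144, but library 1 of 6 months held only 92.1 CPM. Some neighbours in number moved together: novel_circ_0026909 was at 30.4, 371 and 0 CPM at 6 months and 278, 14.2 and 584 CPM at 9 months, and novel_circ_0026913 followed it at 8.29, 139 and 0 and then 99.0, 18.9 and 332 CPM.

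**Figure D4:**
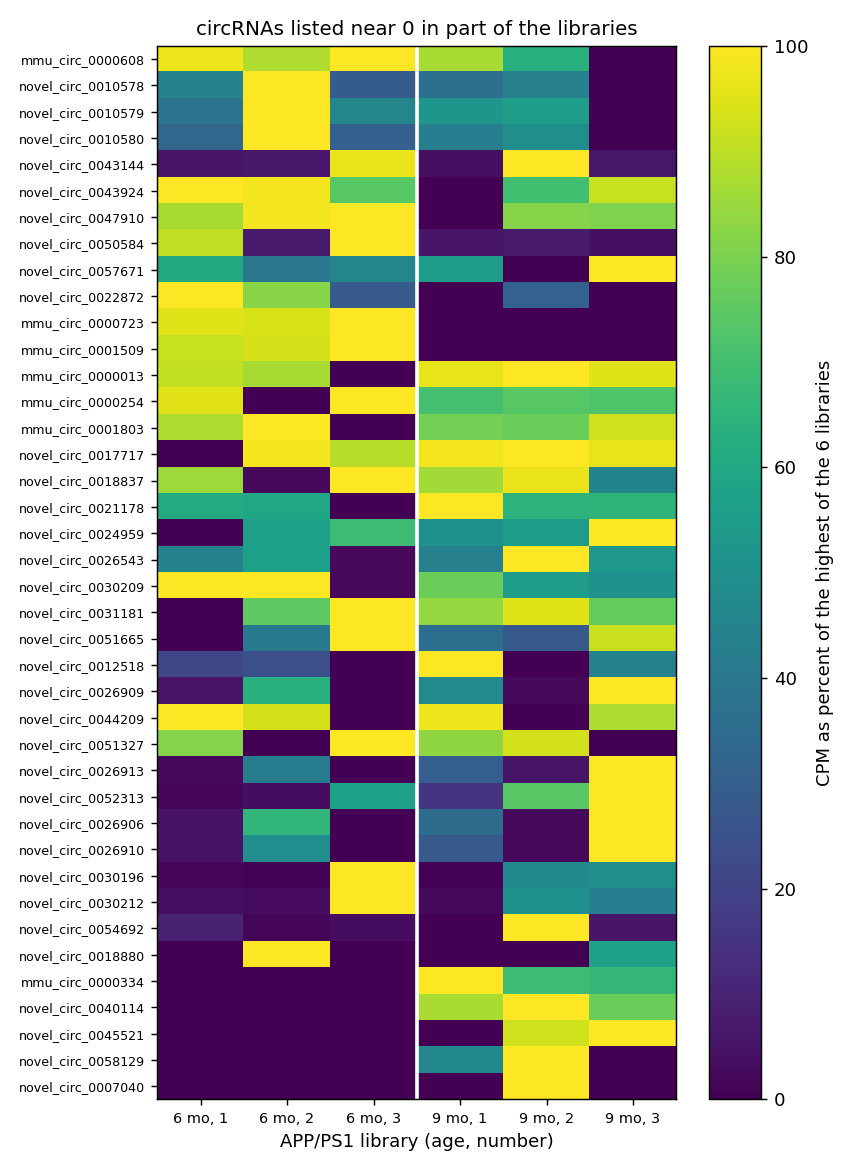
The 40 circRNAs that reached 200 CPM and were under 5% of their highest level in at least 1 of the 6 APP/PS1 libraries, one per row, with a column per library and colour for the level as a percent of the highest of the 6. The white line parts 6 from 9 months. In 4 rows every library of one age is dark and every library of the other bright. Only a row dark in exactly 3 libraries can show this.

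CircRNAs listed at 0 throughout one age were about as many in each direction. There were 159 (1.01%) at 0 in all 6-month libraries with reads in all 9-month libraries, and 177 (1.13%) the other way round. In wild type the numbers were 179 (1.14%) and 105 (0.669%). Nearly all were rare, with a median of 8.28 CPM and 7.96 CPM at the age where they were present, and 18 of the 336 had at least 5 reads in each such library. Of the 159, 72 were tested and none was called, and of the 177, 79 were tested and 1 was called, novel_circ_0015649. mmu_circ_0000334 was listed at 0 at 6 months and at 367, 251 and 245 CPM at 9 months (edgeR adjusted p = 0.0665). It passed with DESeq2 (0.00254), with the APP/PS1 libraries alone (1.67e-05) and without wild-type library 1 (0.0415), 2 (0.0423) or 3 (7.09e-07) of 9 months. In 14 of 20 alternatives it did not pass, with an adjusted p of 0.607 under limma-voom. In wild type it was at 229 to 294 CPM at 6 months and at 268, 585 and 0 CPM at 9 months. novel_circ_0040114, at 0 and then 383, 438 and 339 CPM, had an adjusted p of 0.246. It was 4.13e-10 with DESeq2 and 2.51e-06 with the APP/PS1 libraries alone, but 0.574 with limma-voom. In wild type it also dropped to 0 within a group, with 0, 315 and 0 CPM at 6 months and 437, 0 and 299 CPM at 9 months. novel_circ_0054039, at 0 and then 99.0, 82.9 and 96.5 CPM, had an adjusted p of 0.109. With the APP/PS1 libraries alone it was 0.000468 and without wild-type library 3 of 9 months 0.000168, while 17 of 20 alternatives left this circRNA uncalled. Its wild-type libraries were at 0 at 6 months and at 102, 101 and 0 CPM at 9 months. Less abundant were novel_circ_0038325 (13.4, 11.8 and 27.2 CPM at 9 months) and novel_circ_0015771 (16.1, 11.8 and 19.8 CPM).

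In the other direction, mmu_circ_0001509 was at 249, 254 and 272 CPM at 6 months and at 0 at 9 months (edgeR adjusted p = 0.184). It passed with the APP/PS1 libraries alone (5.32e-06) and without wild-type library 3 of 9 months (0.024). In 18 of 20 alternatives it did not pass, with an adjusted p of 0.67 under limma-voom. Its wild-type libraries were at 0, 214 and 212 CPM at 6 months and at 283, 310.5 and 0 CPM at 9 months, so here too a 0 occurred within a group of otherwise high values. novel_circ_0044900 was at 96.7, 124 and 137 CPM and then at 0 (adjusted p = 0.202). It passed with limma-voom (0.0267), with the APP/PS1 libraries alone (0.000285) and without wild-type library 1 of 9 months (0.000198). In 16 of 20 alternatives it did not pass. Its wild-type libraries were at 0 at 6 months and at 116, 0 and 0 CPM at 9 months. novel_circ_0012322 was at 102, 110.5 and 71.1 CPM and then at 0 (adjusted p = 0.202), with 0.000835 in the APP/PS1 libraries alone and 0.0491 without wild-type library 3 of 9 months. In 18 of 20 alternatives it did not pass. Its wild-type libraries were at 103, 0 and 99.9 CPM at 6 months and at 93.3, 92.7 and 0 CPM at 9 months. novel_circ_0058129 and novel_circ_0050584 had mixed values within an age. The first was at 0 at 6 months and at 112, 239 and 0 CPM at 9 months (adjusted p = 0.129, with DESeq2 0.0236, and 0.000923 without APP/PS1 library 3 of 9 months), and the second at 395, 30.9 and 437 CPM and then at 26.8, 30.8 and 17.3 CPM (adjusted p = 0.448). In 17 of 20 alternatives the first did not pass, with an adjusted p of 0.683 under limma-voom.

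The age difference was set beside that of wild-type mice, fitted in the same model. In wild type 9 circRNAs were called (0.0605%), 7 higher (0.0471%) and 2 lower (0.0134%) at 9 months, and 933 had an unadjusted p under 0.05 (6.27%). The wild-type count was not stable, running from 1 without wild-type library 1 of 9 months to 14 without APP/PS1 library 2 or library 3 of 6 months. Of the 658 circRNAs with an unadjusted p under 0.05 in APP/PS1, 336 (51.1%) had the same sign in wild type, as did 50.1% of all tested. In both genotypes 77 had such a p, which is 11.7% of the 658 and 8.25% of the 933, and 38 of these 77 had the same sign.

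The difference between the age effects passed the threshold for 6 circRNAs (0.0403%), 2 with a more positive (0.0134%) and 4 with a more negative (0.0269%) change in APP/PS1, while 890 (5.98%) had an unadjusted p under 0.05. They were novel_circ_0015795, novel_circ_0015649, novel_circ_0027638, mmu_circ_0000598, novel_circ_0045011 and novel_circ_0015639. The last was outside the naming rule because of its few reads and was added after its values were seen. novel_circ_0045011 differed through wild type. It was at 158, 272 and 152 CPM at 6 months and 142, 125 and 215 CPM at 9 months in APP/PS1, which overlapped, and at 23.7, 20.4 and 20.6 CPM and then 90.2, 250 and 257 CPM in wild type (edgeR adjusted p of the difference = 0.0112). novel_circ_0015639 was at 52.5, 59.7 and 22.9 CPM and then 5.35, 0 and 0 CPM in APP/PS1, and at 0 and then 21.4, 36.3 and 41.5 CPM in wild type (adjusted p of the difference = 0.00271). Without APP/PS1 library 2 of 6 months the count of 6 became 3.

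**Figure D5:**
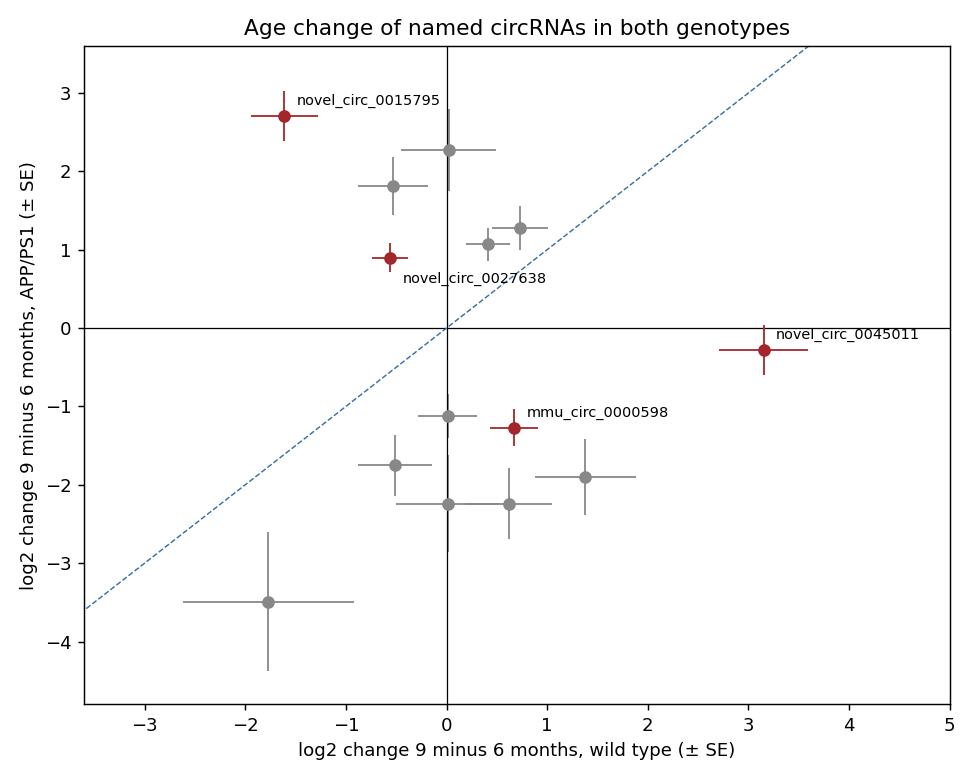
Log2 change from 6 to 9 months in wild type (horizontal) and in APP/PS1 (vertical) for the circRNAs named by their p-value that had a fitted change in both genotypes, with bars of 1 SE. Red marks those whose age effect differed between the genotypes, and the dashed line is equal change. novel_circ_0015795 lies at -1.61 and 2.71, and novel_circ_0045011 at 3.15 and -0.28.

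Several of these IDs have numbers near each other. In a window from novel_circ_0015600 to novel_circ_0015999, chosen after the values were seen and given with no test, 15 of 90 tested circRNAs had an unadjusted p under 0.05 (16.7%), 6 higher and 9 lower. Among the other IDs numbered by the authors it was 574 of 13586 (4.22%). Both called circRNAs were in the window, as were 7 of the 50 with the smallest p and 3 of the 6 with a difference between the genotypes. The most abundant of the 15 were novel_circ_0015773 (mean 736 CPM), with a log2 difference of -0.47, novel_circ_0015949 (482 CPM), with 0.51, and novel_circ_0015808 (131 CPM), with -1.03. In wild type 12 of the 90 had such a p (13.3%), against 6.27% of all tested circRNAs. Whether neighbouring numbers share a gene is not given in the files used here.

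Genes known to act in the formation, export and decay of circRNAs were read in the long RNA libraries of the same groups, which are other libraries than the circRNA ones. Their values are FPKM, a level scaled to transcript length and library size, and the test was limma on log2(FPKM + 0.25). Of 36 listed genes 35 were tested, and none was called between 9 and 6 months in APP/PS1, as for all 13593 genes tested (percent called 0), while 5 of the 35 and 1784 of all genes (13.1%) had an unadjusted p under 0.05. The list had a median log2 difference of -0.03 (range -0.46 to 0.26), against 0.02 over all genes. With a pseudocount of 1, or with the 6 APP/PS1 libraries alone, 3 genes outside the list were called.

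Among the 14 splicing factors, 5 had higher and 9 lower values at 9 months. Mbnl1, a splicing regulator whose own transcript can form a circRNA, was at 37.6, 40.9 and 33.6 FPKM and then 21.9, 27.6 and 32.4 FPKM (log2 -0.46, SE 0.23, limma adjusted p = 0.43). Sfpq, a nuclear RNA-binding protein, had means of 44.3 ± 2.74 and 40.6 ± 1.79 FPKM (adjusted p = 0.335). Of the 6 factors that bind double-stranded RNA, 3 were higher and 3 lower. Adar, the RNA editing enzyme that opens the paired introns which favour ring formation, was at 39.9, 38.5 and 38.8 FPKM and then 32.6, 33.3 and 32.6 FPKM. It did not overlap between the ages, yet did not pass the threshold over all genes (log2 -0.25, SE 0.06, limma adjusted p = 0.167). Dhx9, a helicase that unwinds such introns, had means of 38.4 ± 1.47 and 34.9 ± 0.833 FPKM (adjusted p = 0.232).

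Of the 3 export genes tested, Nxf1, the mRNA export receptor, had means of 22.1 ± 2.56 and 24.1 ± 0.94 FPKM (limma adjusted p = 0.547). Ddx39b, a helicase of the nuclear export machinery, had means of 31.2 ± 2.89 and 28.9 ± 2.66 FPKM (adjusted p = 0.685). Of the 12 decay factors 5 were higher and 7 lower. Upf1, a helicase of nonsense-mediated decay, was at 17.4, 17.7 and 17.5 FPKM and then 19.3, 19.2 and 19.9 FPKM (log2 0.15, SE 0.04, adjusted p = 0.213). Rida, which links modified RNA to an endonuclease, had means of 16.0 ± 2.03 and 19.2 ± 2.47 FPKM (adjusted p = 0.325). All ± values here are SD with n = 3.

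The tissue was checked in the long RNA libraries, since the protocol text speaks of retinas while the label reads brain. Over the 6 APP/PS1 libraries 6 neuron genes summed to 1753 to 1894 FPKM, and 8 photoreceptor genes to 0.794 to 1.23 FPKM. Some marker sums were apart between the ages. The 4 pituitary genes summed to 1.75 to 14.4 FPKM at 6 months and 19.9 to 242 FPKM at 9 months. The 242 FPKM was mostly Pomc, at 228 FPKM in library 3 of 9 months. The 5 plaque-associated microglia genes summed to 25.3 to 28.7 and 37.9 to 46.1 FPKM, 6 microglia genes to 102 to 111 and 113 to 127 FPKM, and 4 oligodendrocyte genes to 451 to 492 and 510.2 to 544 FPKM. Of the 6 microglia genes 4 were higher and 2 lower, with C1qa and C1qb each at a log2 difference of 0.31 and Cx3cr1 at -0.06. The sums of the 4 astrocyte genes, 233 to 258 and 258 to 296 FPKM, met and were not apart. Among them Gfap had a log2 difference of 0.45, while Aqp4, Aldh1l1 and Slc1a3 were at 0.01, -0.02 and 0. The 9 choroid plexus genes (102 to 330.3 and 76.9 to 297 FPKM) and 9 striatum genes (329 to 356 and 330.4 to 381 FPKM) overlapped. No gene of these lists was called, and the part of tissue makeup in the circRNA differences was not tested. In bulk tissue, fewer cells of a type and less RNA per cell cannot be told apart.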

How the data were processed

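Brain RNA of APP/PS1 and wild-type mice was sequenced as circRNA, long RNA and small RNA libraries. The authors deposited whole-number read counts per circRNA beside CPM values (counts per 1000000 reads, named TPM by the authors), each equal to the count divided by the library total and scaled, with no length term. Only the counts were tested. The mRNA table holds FPKM per transcript, deposited by the authors with no counts, so its depth is unknown. The submitters' processing notes name Bowtie 0.12.2 and build mm8 without saying for which step. The software that called circRNAs is not given in the sources used here.

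Counts were tested in R 4.3.3 with edgeR 4.0.16 (quasi-likelihood F test, TMM scaling), in a single model of the 12 circRNA libraries with 4 group means and Benjamini-Hochberg adjustment over the 14872 circRNAs tested (2 or more reads in 3 or more libraries, and 20 reads over all). The shared biological coefficient of variation was 29.7%. SE and 95% intervals come from that fit. FPKM were summed per gene and tested with limma 3.58.1 (trend) on log2(FPKM + 0.25), for genes of a mean of at least 0.5 FPKM. Whole-library values were compared with two-sided exact permutation tests, adjusted over 4 measures. The scripts were tested on simulated data. APP/PS1 libraries held 361863 to 452621 reads, and molecules were not tagged, so counting error does not cover amplification.

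Named circRNAs were the 10 most abundant, those called, the 10 of smallest p in each direction with a mean of at least 10 reads, up to 5 per direction listed at 0 at one age, and the 3 of smallest p for the difference between genotypes. Named genes were the 2 of smallest p in each list. The members, lists and tests were chosen with earlier results of these data known. Alternatives were other scalings, DESeq2 1.42.0, limma-voom, other filters, a block for the library number, the 6 APP/PS1 libraries alone and leaving out each library.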

Additional observations from a re-analysis of the deposited data

Results flagged for a closer look

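For 6 circRNAs the change from 6 to 9 months differed between APP/PS1 and wild type by edgeR's test of the difference itself. novel_circ_0015795 had the smallest adjusted p, 0.000121, with a higher level at 9 months in APP/PS1 and a lower one in wild type. novel_circ_0015649 and novel_circ_0015639 each had an adjusted p of 0.00271, with lower levels at 9 months in APP/PS1 and higher levels in wild type. In these 3 the difference kept its side of the threshold in all 19 alternatives, with the highest adjusted p at 0.00133 for the first and 0.0252 for the other two.

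novel_circ_0045011 had an adjusted p of 0.0112 and lost the call in 6 of 19 alternatives. novel_circ_0027638 (0.034) lost it in 11 of 19 and mmu_circ_0000598 (0.0432) in 12 of 19, in each case 10 times by leaving out a library. No group had enough libraries for a check of single outlying libraries.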

How the results depend on the processing

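RLE factors, library totals alone and no filter on low counts left every count of calls within 1.5 times. For APP/PS1, wild type and the difference of the age effects, DESeq2 called 8, 28 and 10 circRNAs, and filterByExpr, with 7098 tested, 1, 0 and 3. Beside that 0, 486 circRNAs had an unadjusted p under 0.05. limma-voom called 4 for APP/PS1 and 4 for wild type, and the APP/PS1 libraries alone gave 12. Leaving out 1 library gave 1 to 10, 1 to 14 and 3 to 9 calls. With the library number as a block the counts were 12, 18 and 13. The deviations of same-numbered libraries from their group means correlated at 0.045, -0.133 and -0.027 in APP/PS1 and at 0.132, 0.093 and -0.029 in wild type. With 3 libraries a group, such values cannot settle whether the numbers pair the libraries. The mean paired difference in reads is -2645 by construction, and the block gave a called gene count of 0.

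The difference in reads turned to 22329 without APP/PS1 library 2 of 6 months and 10557 without library 1 of 9 months, with a range of -23050.2 to 22329. The share of the 10 most abundant circRNAs changed sign, to 0.199, without the pair that switched, a choice made after seeing the data. Leaving out a library gave -1.43 to -0.388 for that share, -195 to -119 for circRNAs detected and 0.0171 to 0.326 for the catalogued share. CircRNAs at 0 throughout one age fell from 336 to 18 when 5 reads were required. Without APP/PS1 library 2 of 6 months the log2 difference of novel_circ_0045011 was 0.07 (edgeR adjusted p = 1, and 0.998 to 1 over the libraries left out). Over single circRNAs and genes, 841 of 917 alternative values were classed as unchanged, 36 lost a call and 39 gained one. For those given with a test, unchanged meant the same direction and side of the threshold. For abundant circRNAs given by log2 difference alone it did not require the same sign, and novel_circ_0044209 ran from -0.65 to 0.51. The causes were not tested.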

Other observations

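novel_circ_0007040 was present at 1674 CPM in APP/PS1 library 2 of 9 months and was listed at 0 in the other 5 APP/PS1 libraries. In wild type it was at 0 in all 3 libraries of 6 months and at 2513, 2476 and 1523 CPM at 9 months. It was chosen after its values were seen.

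The 3 circRNAs novel_circ_0010578, novel_circ_0010579 and novel_circ_0010580 were at 0 together in APP/PS1 library 3 of 9 months and highest together in library 2 of 6 months, where novel_circ_0010579 was at 541 CPM. In wild type at 6 months novel_circ_0010579 and novel_circ_0010580 were at 0 in all 3 libraries. novel_circ_0030196 and novel_circ_0030212 were also low together: both were under 50 CPM in the same 3 APP/PS1 libraries. In library 3 of 6 months they were at 1321 and 1100.3 CPM. These were chosen after their values were seen.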
